A study of Mus musculus with 2 samples.

Results

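Il4i1, Fscn1, Cd63, Anxa3, Fabp5 and Spint2 are 6 of the 17751 genes counted in splenic dendritic cells (DCs), and they were chosen as genes of mature conventional DCs (cDCs) that the mature cDC2 of cluster C1 and the mature cDC1 of cluster C12 share or do not share. They were selected on levels per cluster measured in these same cells, so the height of the 6 genes in C1 and C12 is a description and no test is attached to it. All 6 were found in the count tables.

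The transcripts were read by CITE-seq, which sequences RNA and antibody barcodes of single cells together, in live CD11c+ MHCII+ cells sorted from spleen. The spleens of 6 C57BL/6 (WT) mice were pooled into a single library and those of 6 Batf3-/- mice into another, with mice that were female and 8 weeks old on both sides. Batf3-/- mice lack, in all cells, a transcription factor that cDC1 need to develop. With n = 1 library per genotype there is no biological replicate, no test between genotypes was possible, and all intervals below cover counting error only, not differences between mice, pools or libraries.

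The libraries hold 12224 WT and 12119 Batf3-/- cells, with a median of 8374.5 and 8516 unique molecular identifiers (UMIs, counted molecules) per cell, and 56 barcode sequences occur in both. Batf3 itself was at 206 CPM in WT and 2.49 CPM in Batf3-/- cells, as the labels say. A level here is the sum of a gene's UMIs over the cells of a cluster and library per 1000000 of all UMIs of these cells (CPM), with an exact Poisson 95% interval in parentheses. C1 held 721 WT and 1845 Batf3-/- cells and C12 held 394 and 31, so that the Batf3-/- values of C12 rest on few cells. The summed level of 9 cDC1 markers was 1171 CPM in WT C12 and 312 CPM in WT C1, and that of 8 cDC2 markers was 181 and 496 CPM. In Batf3-/- cells the cDC1 sums were 1045 and 339 CPM and the cDC2 sums 137 and 416 CPM, with Tlr3, Clec4a4 and Mgl2 at 0 in C12. The cDC1 markers of C12 did not keep the same proportions. Irf8 was at 454 CPM in WT and 673 CPM in Batf3-/- C12, and Cd24a at 61.7 and 54.2 CPM. Cd8a was at 350 and 210 CPM, Cadm1 at 70.1 and 3.62 CPM, Clec9a at 46.2 and 7.23 CPM and Naaa at 34.7 and 3.62 CPM. Ccr7, the receptor that guides mature DCs to lymphoid T cell zones, was at 831 and 1935 CPM in C1 and C12 of WT. The markers of T and NK cells summed to at most 4.96 CPM in C1 and C12 of either library, and those of neutrophils and red cells to at most 18.5 CPM. The pDC markers summed to 183 and 191 CPM in C1 of WT and Batf3-/- cells and to 151 and 228 CPM in C12. Of the B cell genes, Ms4a1 was at 33.6 and 43.2 CPM in C1 and at 48.9 and 188 CPM in C12, and Cd79b was at 40.2 and 52.7 CPM in C1 and at 6.07 and 3.62 CPM in C12.

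When cDCs mature they stop taking up antigen, raise costimulatory molecules and Ccr7, rebuild their actin skeleton and move towards T cells, and cDC1 and cDC2 pass through this programme from different resting states. The 6 genes stand for different sides of it. Il4i1 encodes a secreted enzyme that oxidizes aromatic amino acids and restrains T cells. Fscn1 (fascin) bundles actin filaments and is a classic marker of mature DCs with long protrusions. Cd63 is a tetraspanin of late endosomes and lysosomes, and Anxa3 is an annexin, a protein that binds membranes when calcium rises. Fabp5 carries fatty acids inside the cell, and Spint2 is a membrane-anchored Kunitz inhibitor of serine proteases.

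In GRCm38 (GENCODE M21) Il4i1 lies on chromosome 7 from 44816387 to 44840809, Spint2 on chromosome 7 from 29256323 to 29281912, Fscn1 on chromosome 5 from 142960343 to 142973185, Anxa3 on chromosome 5 from 96793339 to 96845966, Cd63 on chromosome 10 from 128900989 to 128912822 and Fabp5 on chromosome 3 from 10012548 to 10016607. Promoter windows of RefSeq, build GRCm38.p6, matched 4 of the 6 genes. None was found for Fabp5 and Anxa3, so these 4 are shown because of the windows available and not because of their levels. Each window runs from 250 bases before to 50 bases after the start that RefSeq gives. For Il4i1, Fscn1 and Cd63 this start lies inside the GENCODE gene body given above, while the Spint2 window lies wholly before its GENCODE gene body. The windows are printed 5′ to 3′ on the strand of the gene, with the CG dinucleotides in capitals.

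Il4i1 (chr7:44836038-44836337, plus strand): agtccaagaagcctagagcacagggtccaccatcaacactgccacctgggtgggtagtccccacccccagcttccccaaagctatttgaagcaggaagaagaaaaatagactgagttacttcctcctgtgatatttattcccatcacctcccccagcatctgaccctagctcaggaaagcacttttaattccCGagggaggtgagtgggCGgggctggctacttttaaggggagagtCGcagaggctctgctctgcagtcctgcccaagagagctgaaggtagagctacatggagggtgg

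Fscn1 (chr5:142960105-142960404, plus strand): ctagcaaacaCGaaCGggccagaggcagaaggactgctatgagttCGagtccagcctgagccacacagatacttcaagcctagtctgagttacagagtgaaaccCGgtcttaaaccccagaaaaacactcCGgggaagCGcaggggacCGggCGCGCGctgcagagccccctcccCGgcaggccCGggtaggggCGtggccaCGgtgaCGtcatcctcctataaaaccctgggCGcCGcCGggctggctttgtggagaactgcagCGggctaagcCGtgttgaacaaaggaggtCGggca

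Cd63 (chr10:128909095-128909394, plus strand): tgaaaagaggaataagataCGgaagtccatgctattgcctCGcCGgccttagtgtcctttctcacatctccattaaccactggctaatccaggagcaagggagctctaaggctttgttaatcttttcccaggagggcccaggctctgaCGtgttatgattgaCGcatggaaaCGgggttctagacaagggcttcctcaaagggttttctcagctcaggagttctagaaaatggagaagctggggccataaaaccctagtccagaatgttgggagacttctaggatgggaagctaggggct

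Spint2 (chr7:29281928-29282227, minus strand): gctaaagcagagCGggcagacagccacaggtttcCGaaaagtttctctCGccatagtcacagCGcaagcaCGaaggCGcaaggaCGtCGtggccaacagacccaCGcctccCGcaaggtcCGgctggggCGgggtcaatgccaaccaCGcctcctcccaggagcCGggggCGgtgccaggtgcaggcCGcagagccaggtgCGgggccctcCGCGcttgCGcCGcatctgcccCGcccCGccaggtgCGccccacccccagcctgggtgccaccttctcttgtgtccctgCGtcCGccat

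The windows differ in their number of CG dinucleotides, with 3 in Il4i1, 6 in Cd63, 21 in Fscn1 and 26 in Spint2, against a median of 7 over all 32851 windows. The strict consensus of NF-kB, the AP-1 letters TGANTCA and a pair of GAAA with 2 bases between them (a motif of interferon regulatory factors) were searched on both strands, and none of the 4 windows held a match. Over all windows the shares with a match were 4.51% for NF-kB, 7.81% for AP-1 and 3.44% for the paired GAAA. These letters are therefore rare in windows of this length, and their absence says nothing of whether the factors act on these genes. The body of Il4i1 overlaps Nup62 on the same strand and Atf5 and Tbc1d17 on the other. In WT C1 these were at 22.1, 9.45 and 18.9 CPM, against 1193 CPM of Il4i1.

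Il4i1 was at 1193 CPM (1163 to 1224) in WT C1 and 1224 CPM (1184 to 1264) in WT C12. In Batf3-/- cells it was at 1276 CPM (1257 to 1295) in C1 and 1360 CPM (1226 to 1504) in C12. These were the highest levels of both libraries, and in neither library did the ratio of C12 over C1 leave the range of counting error, at a log2 ratio of 0.04 (-0.02 to 0.10) in WT. Over both libraries the next clusters were C16, a small cluster of mixed lineage, at 698 CPM and C9, a cDC2 cluster with a median of 1467 UMIs per WT cell, at 657 CPM, whose intervals overlap. The resting clusters C0 (cDC2a) and C4 (cDC1) were at 65.1 and 28.0 CPM in WT.

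Fscn1 was at 653 CPM (631 to 676) in WT C1 and 957 CPM (922 to 993) in WT C12, and at 927 CPM (911 to 943) and 1558 CPM (1415 to 1713) in the same clusters of Batf3-/- cells. It was thus higher in C12 than in C1 in both libraries, by log2 ratios of 0.55 (0.48 to 0.62) and 0.75 (0.61 to 0.89). The step down to the next clusters was steep. In WT, C16 was at 143 CPM and C9 at 136 CPM, and in Batf3-/- cells C8 was at 157 CPM and C9 at 153 CPM, with intervals that overlap in each pair.

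Cd63 was at 504 CPM (484 to 524) in WT C1 and 837 CPM (805 to 871) in WT C12, and at 602 CPM (589 to 615) and 886 CPM (778 to 1004) in Batf3-/- cells. C12 exceeded C1 by a log2 ratio of 0.73 (0.65 to 0.81) in WT and 0.56 (0.37 to 0.74) in Batf3-/- cells. Of the 6 genes it was the one nearest to absent in resting cDC2a, with 76 UMIs over 3176 WT cells of C0, or 3.48 CPM (2.74 to 4.36).

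Anxa3 was at 730.3 CPM (707 to 754) in WT C1 and 801 CPM (769 to 834) in WT C12, and at 1045 CPM (1028 to 1062) and 806 CPM (704 to 919) in Batf3-/- cells. The order of C1 and C12 therefore turned between the libraries, with a log2 ratio of C12 over C1 of 0.13 (0.06 to 0.21) in WT and -0.37 (-0.57 to -0.18) in Batf3-/- cells. C9 came next at 479 CPM in WT and 569.8 CPM in Batf3-/- cells.

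Fabp5 was the gene that C1 and C12 did not share. It was at 2411 CPM (2368 to 2454) in WT C1 and 169 CPM (154 to 184) in WT C12, 14.3-fold lower, with a log2 ratio of -3.84 (-3.97 to -3.71). By this ratio it stood at place 2413 of 2414 genes counted from the highest. In Batf3-/- cells it was at 2816 CPM (2788 to 2844) in C1 and 926 CPM (816 to 1046) in C12, a log2 ratio of -1.61 (-1.79 to -1.43). In WT, C12 was at place 8 among the 20 clusters, below the mature cDC2b of C11 at 443 CPM and the mature cDC2a of C8 at 231 CPM. In Batf3-/- cells the 31 cells of C12 were above C11 at 608 CPM and C8 at 488 CPM.

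Spint2 was at 261 CPM (247 to 276) in WT C1 and 401 CPM (379 to 425) in WT C12, and at 303 CPM (294 to 312) and 390.5 CPM (320 to 471) in Batf3-/- cells. It had the flattest profile of the 6 genes, with 77.3 CPM in WT C0 and 76.1 CPM in WT C4, and over both libraries 176 CPM in the plasmacytoid DCs of C14. C16 was at 269.8 CPM over both libraries, with an interval overlapping that of C1 at 292 CPM.

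**Figure D1:**
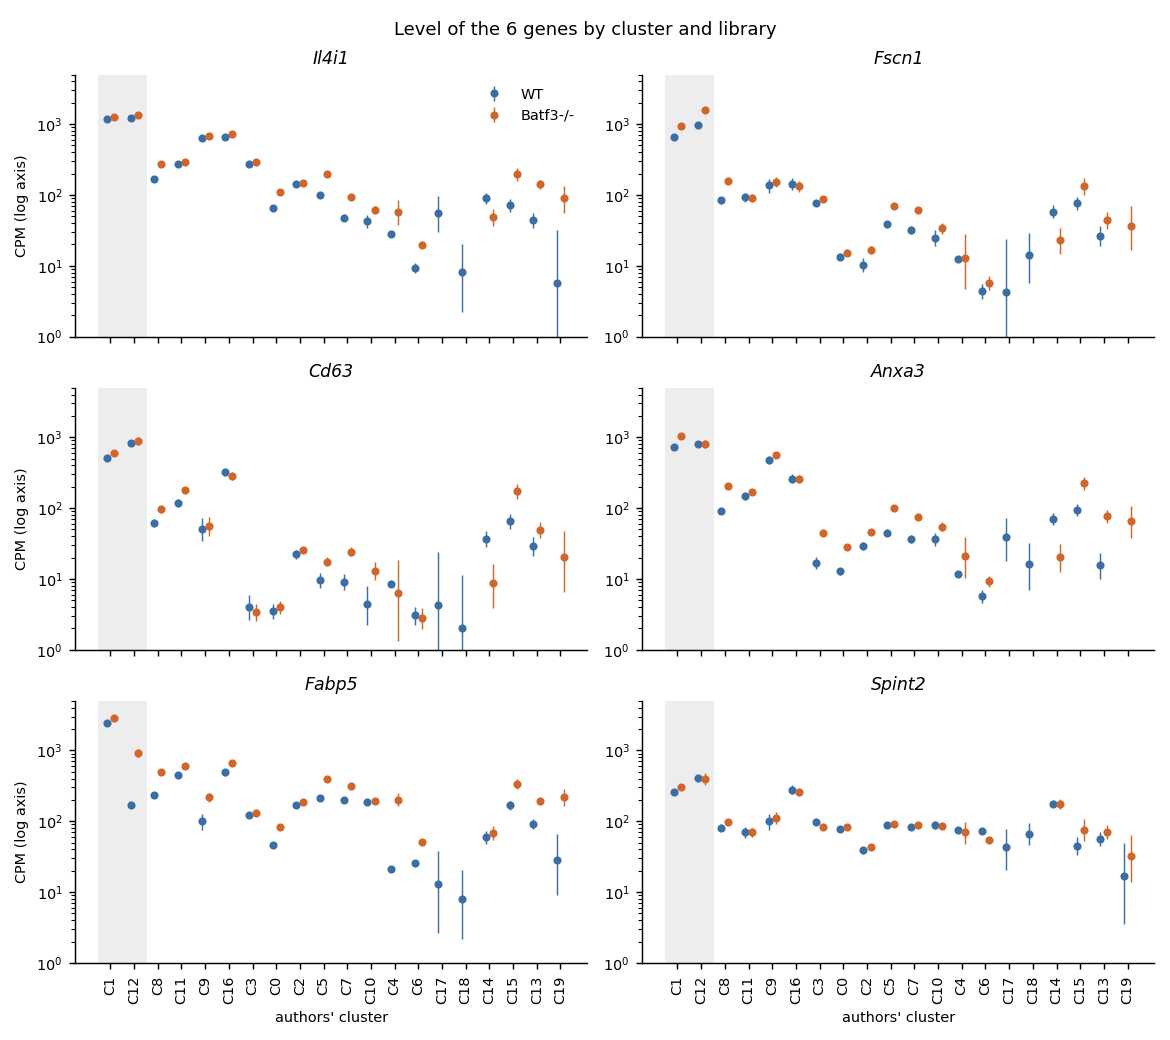
Level of each gene (CPM, log axis) in the authors' clusters, with WT in blue and Batf3-/- in orange, points for clusters of at least 20 cells in a library and bars for exact Poisson 95% intervals of counting error. The shaded C1 and C12 sit highest for Il4i1, Fscn1, Cd63 and Anxa3, WT C16 at 279.96 CPM lies between them for Spint2, and for Fabp5 WT C12 drops to 169 CPM beside 2411 CPM in C1.

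Set beside each other, 5 of the 6 genes stayed within 2-fold between WT C12 and WT C1, and Fabp5 was the 1 gene past it. Of 2414 genes that averaged 50 CPM or more over both clusters, 437 were past 2-fold in either direction, which is 18.1%. The ratios chose the genes, so nothing is read from this count. The median log2 ratio was 0.34 over the 6 genes and -0.16 over all 2414. Of the other maturation genes, 3 of 8 genes of migration and costimulation that passed 50 CPM were past 2-fold higher in C12 and none lower. Ccr7 was among them at 1.22 (1.16 to 1.28), as was Cd40, the receptor for T cell help, at 1.096 (0.96 to 1.23). Among cytokines and chemokines 4 of 6 were past 2-fold higher in C12, led by Il12b, a subunit of interleukin 12, at 23.1 CPM in C1 and 471 CPM in C12. Of the 5 that passed in Batf3-/- cells, 2 were past 2-fold higher, against 8.68% of all genes, and Il12b was at 30.9 and 65.1 CPM, the latter from 18 UMIs. None of 6 genes of NF-kB signalling and survival passed 2-fold in either direction, and Relb, which acts in the non-canonical pathway, was at -0.48 (-0.55 to -0.40). Of these 6, 1 was past 2-fold higher in Batf3-/- cells, and of the 8 genes of migration and costimulation 3 were higher and 1 lower.

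The families to which the 6 genes belong held members on both sides, and over all 2414 genes 8.91% were past 2-fold higher in C12 and 9.20% lower. Of 8 tetraspanins that passed 50 CPM, 1 was past 2-fold higher in C12 and 4 lower, with Cd81 at 2.29 (2.16 to 2.43) and Cd82 at -1.91 (-2.21 to -1.61). Of 5 other annexins 1 was past 2-fold higher, Anxa7 at 1.86 (1.61 to 2.12), and none lower. Anxa2 was at -0.68 (-0.85 to -0.52) and Anxa4 at 0.78 (0.58 to 0.97). Of 5 other genes of actin bundling and motility 1 was past 2-fold lower, and Lcp1 (plastin), an actin bundler of leukocytes, was at 959 CPM in C1 and 565 CPM in C12, opposite in order to Fscn1. None of the 8 listed genes of fatty acid binding and uptake reached a mean of 50 CPM. None of the 5 partners of Spint2 in the files did so either. Of 9 genes of aromatic amino acid catabolism and the receptor Ahr, 2 passed 50 CPM: Kynu, of the kynurenine pathway, was past 2-fold lower in C12 at -1.42 (-1.76 to -1.09), and Ahr was at -0.27 (-0.53 to -0.01).

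**Figure D2:**
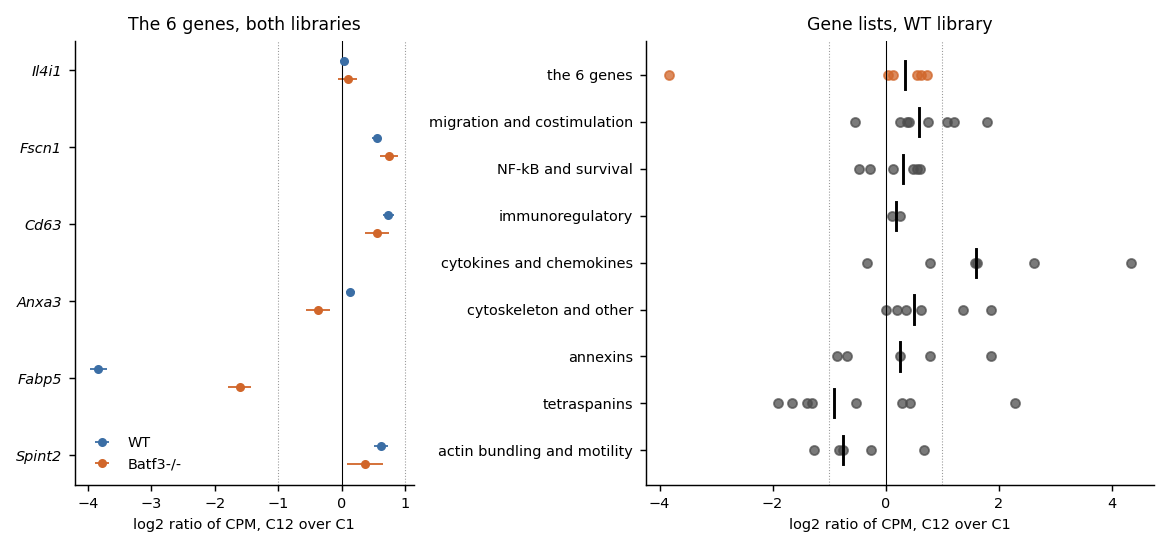
Log2 ratio of CPM of C12 over C1, on the left for the 6 genes in both libraries with 95% intervals of counting error and on the right for the listed genes that passed 50 CPM in WT, each point a gene and each black line a list's median; dotted lines mark 2-fold. Fabp5 stands at -3.84 in WT and -1.61 in Batf3-/- cells, while the other 5 genes lie between -0.37 and 0.75 in both libraries.

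Against their resting counterparts all 6 genes were past 2-fold higher in both mature clusters of WT. From C0 to C1 the largest fold was that of Cd63 at 145-fold, followed by Anxa3 at 57.3-fold, Fabp5 at 51.5-fold, Fscn1 at 48.3-fold, Il4i1 at 18.3-fold and Spint2 at 3.38-fold. From C4 to C12 Cd63 was 97.3-fold, Fscn1 77.8-fold, Anxa3 68.6-fold, Il4i1 43.7-fold, Fabp5 8.01-fold and Spint2 5.27-fold higher. The share of all genes past 2-fold higher was 8.43% from C0 to C1 and 19.8% from C4 to C12. Fscn1, Cd63, Anxa3 and Fabp5 were under 50 CPM in C0 and, with Il4i1, in C4. They reached the mean of 50 CPM only through the mature cluster. The genes were also chosen as genes of mature cDCs, so nothing is read from these counts. C4 contains rare cells with many UMIs of these genes. With cells called as doublets by Scrublet left out, C4 was at 6.42 CPM of Fabp5 in place of 21.1 CPM, and the log2 ratio of C12 over C4 was 4.76 in place of 3.00. The log2 ratios of the other genes were then 7.55 for Fscn1, 7.41 for Cd63, 7.20 for Anxa3, 6.41 for Il4i1 and 2.51 for Spint2, in place of 6.28, 6.60, 6.10, 5.45 and 2.40, so that Fscn1 and not Cd63 stood first. The order from rest to C1 also depended on the resting cluster. With the cDC2b of C2 as reference the log2 ratios of C1 were 5.99 for Fscn1, 4.64 for Anxa3, 4.50 for Cd63, 3.84 for Fabp5, 3.06 for Il4i1 and 2.75 for Spint2, against 5.59, 5.84, 7.18, 5.69, 4.19 and 1.76 with C0. The 5 monocyte markers summed to 34.8 CPM in WT C0 and 129 CPM in WT C1, where Lyz2 held 572 of their 640 UMIs. Only Lyz2 of this list passed 50 CPM from C0 to C1, and it was 6.06-fold higher in C1. The list summed to 330.4 CPM in WT C4 and 52.6 CPM in WT C12. The neutrophil and red cell markers summed to 149 CPM in WT C4 and 18.5 CPM in WT C12, and the part of either list in the ratios was not tested.

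The other mature clusters carried the 6 genes at lower levels than C1, although both exceeded WT C12 in Fabp5. In C8, Ccr7 was at 693 CPM in WT and 1122 CPM in Batf3-/- cells, and Cd83, a surface molecule of mature DCs, was at 1444 and 1393 CPM, above its 761 CPM in WT C1. Yet Il4i1 was at 170 CPM (157 to 183) in WT C8, Fscn1 at 84.0 CPM (75.4 to 93.3), Cd63 at 61.8 CPM (54.4 to 69.8), Anxa3 at 90.5 CPM (81.6 to 100.1), Fabp5 at 231 CPM (217 to 246) and Spint2 at 80.8 CPM (72.4 to 89.96), between 9.59% and 30.9% of the levels in WT C1. From C0 to C8, 5 of the 6 genes were past 2-fold higher and Spint2 was at a log2 ratio of 0.06 (-0.11 to 0.23). Of the 6, 4 genes passed 50 CPM and 3 of them were past 2-fold higher, against 6.82% of all genes. Of these 3, Anxa3 and Fabp5 were under 50 CPM in C0 and reached the mean of 50 CPM only through C8. The genes were chosen as genes of mature cDCs, so nothing is read from this count. With C2 as the reference the ratios of C8 were 0.25 for Il4i1 and 0.46 for Fabp5, under 2-fold, and 1.06 for Spint2, past it. The monocyte markers summed to 211 CPM in WT C8. Only Lyz2 of them passed 50 CPM, at a log2 ratio of 3.13 (2.95 to 3.31) over C0. From C2 to C11 all 6 passed 50 CPM and 4 were past 2-fold higher, against 2.15% of all genes, and Fscn1 was farthest at 9.04-fold. Of these 4, Fscn1, Cd63 and Anxa3 were under 50 CPM in C2 and reached the mean of 50 CPM only through C11. Nothing is read from this count either. The 5 neutrophil and red cell markers summed to 70.6 CPM in WT C2 and 3718 CPM in WT C11. The haemoglobin chains Hbb-bs and Hba-a1 were at 4.95 and 2788 CPM and at 1.57 and 866 CPM. The neutrophil markers did not rise with them. S100a8 was at 23.9 and 19.5 CPM, S100a9 at 39.6 and 44.7 CPM and Ly6g at 0.603 and 0 CPM. The haemoglobin genes thus moved with this comparison. Their part in the ratios was not tested.

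Clusters outside the mature groups held parts of the set. C9, in which 13.3% to 13.996% of UMIs were mitochondrial against 4.27% to 4.54% in C1, had 53.5% of the WT C1 level of Il4i1 and 65.5% of that of Anxa3, but 4.11% of that of Fabp5 and 10.0% of that of Cd63. The Sox4+ cDCs of C3 were at 278 CPM of Il4i1 and 77.6 CPM of Fscn1 in WT, with Cd63 at 4.05 CPM and Anxa3 at 16.8 CPM, near the levels of C0. Across the 20 clusters, pooled over libraries, the profiles of log2(CPM + 1) correlated with r = 0.91 between Anxa3 and Fscn1 and between Anxa3 and Il4i1, and with r = 0.46 between Fabp5 and Spint2, the lowest pair. The gene most like Il4i1 of 5723 compared was Pnpla8, followed by Relb and Anxa3. Tmem123 was most like Fscn1 (r = 0.95), Tspan3 most like Cd63 (r = 0.94), Ankrd33b most like Anxa3 (r = 0.94), Tmem176a most like Fabp5 (r = 0.88) and Hmgn3 most like Spint2 (r = 0.90). All clusters come from the same pair of libraries, and r is given as a description only.

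Because cells differ in depth, each cell was thinned at random to 1000 UMIs before cells with a UMI were counted, which left out 28 WT and 42 Batf3-/- cells. Il4i1 was then found in 61.8% (95% Clopper-Pearson interval 58.1 to 65.4) of WT C1 cells and 65.6% (60.7 to 70.3) of WT C12 cells, and in 95.4% and 93.9% without thinning. Fabp5 was found in 65.0% (61.4 to 68.5) of WT C1 cells and 10.8% (7.87 to 14.3) of WT C12 cells, and in 88.2% and 36.0% without thinning. Among the 175 WT cells of C13 that carry a lymphocyte label, a background for free RNA with a median of 4254 UMIs against 6176 in C1 and 6887.5 in C12, the thinned shares were 0.57% for Il4i1 and 1.71% (0.35 to 4.93) for Fabp5. The Fabp5 share of WT C12 was thus above this background, while 348 of 390 thinned cells had none and 2 had 3 or more UMIs. In WT C1, 232 of 720 thinned cells had 3 or more.

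Unthinned, the UMIs of Fabp5 were uneven even in C1, with a median of 9 and a maximum of 227 in a WT cell. In WT C12 the 40 cells with the most held 69.9% of its UMIs, whereas the same share was 31.3% for Il4i1 and 26.1% for Anxa3. In C8 a small fraction of cells carried most UMIs of 5 of the 6 genes. The 54 WT cells with the most held 84.5% of the UMIs of Fscn1 and 86.7% of those of Anxa3, against 43.3% for Spint2. Over all 531 WT cells of C8, Spint2 had 335 UMIs, about as many as the 348 of Fscn1 and the 375 of Anxa3.

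The genes were next counted together in thinned cells. In WT C1, 32.4% (29.0 to 35.9) of 720 cells had UMIs of at least 4 of the 6 genes, and 28 cells had all 6. The share was 41.6% (39.4 to 43.9) in Batf3-/- C1, 23.3% (19.2 to 27.9) in WT C12 and 35.5% (19.2 to 54.6) in the 31 Batf3-/- cells of C12. It was 2.45% (1.31 to 4.15) in WT C8 and 5.76% (3.83 to 8.27) in Batf3-/- C8. None of 3175 WT cells of C0 had 4 or more, which allows a share of up to 0.116%. Of the 374 WT cells with at least 4 genes, 62.3% lay in C1 and 24.3% in C12, and of the 880 such Batf3-/- cells 87.3% lay in C1 and 1.25% in C12.

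Within clusters the counts of the genes correlated weakly from cell to cell. Over the 720 thinned WT cells of C1, r for the 15 pairs ran from 0.12 (Il4i1 and Spint2) to 0.26 (Cd63 and Fabp5). In WT C8 it reached 0.42 for Anxa3 and Fabp5 over 531 cells, and the lowest was 0.05 for Fabp5 and Spint2. In WT C12 the 15 values ran from -0.03 to 0.17 over 390 cells. At a few UMIs per cell values this small are no finding on their own, and cells of 1 library are not replicates.

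**Figure D3:**
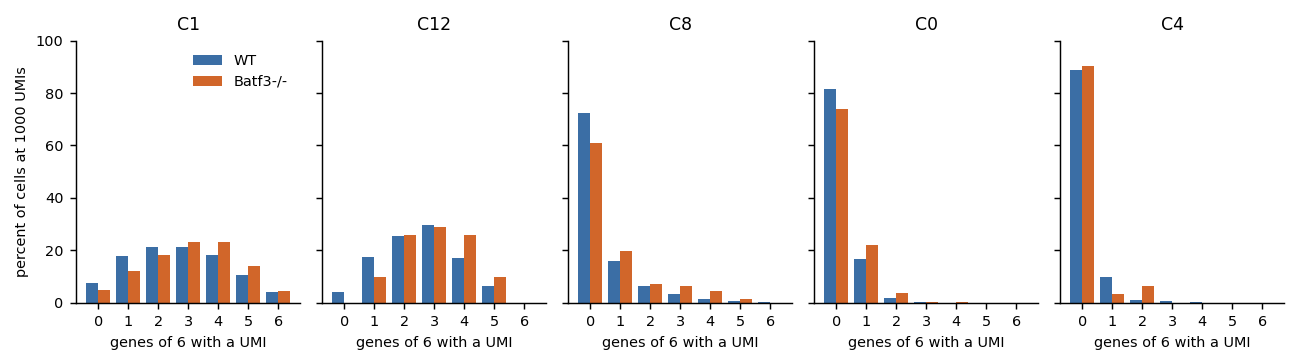
Percent of cells, each thinned to 1000 UMIs, with UMIs of 0 to 6 of the 6 genes, in 5 clusters with WT in blue and Batf3-/- in orange. In C1 and C12 most cells hold 2 or more of the genes, while 72.3% of WT cells in C8 and 81.4% in C0 hold none.

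Between the libraries, the level in C1 differed little for Il4i1, with 1193 CPM in WT and 1276 CPM in Batf3-/- cells, a log2 ratio of 0.10 (0.05 to 0.14). Anxa3 at 0.52 (0.46 to 0.57) and Fscn1 at 0.51 (0.45 to 0.56) differed most, 1.43-fold and 1.42-fold higher in Batf3-/- cells and at places 25 and 26 of 2494 genes. Cd63 was at 0.26, Fabp5 at 0.22 and Spint2 at 0.21. All 6 were thus higher in Batf3-/- C1, but none passed 1.5-fold, which 0.762% of all genes did, and 5% to 95% of genes lay between -0.32 and 0.27. Scrublet called 2.50% of WT and 10.7% of Batf3-/- cells of C1 doublets, and without them Fscn1 and Anxa3 were both at 0.61, past 1.5-fold. Scrublet set its threshold in each library separately, with 4.07% of all WT and 9.97% of all Batf3-/- cells called, so shares of doublets are not comparable between genotypes. What part these calls have in the difference was not tested.

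In C12 the 31 Batf3-/- cells were not told apart from WT by counting error for Il4i1, Cd63, Anxa3 and Spint2. Their log2 ratios had intervals from -0.01 to 0.31, -0.11 to 0.27, -0.20 to 0.21 and -0.34 to 0.25. Fscn1 was at 957 CPM in WT and 1558 CPM in Batf3-/- cells, a log2 ratio of 0.70 (0.55 to 0.85), and Fabp5 at 169 and 926 CPM, or 2.45 (2.23 to 2.67). The share of all genes past 1.5-fold higher in C12 was 9.03%, and these 2 were among them. For Fabp5 a single cell held 100 of the 256 UMIs. With the cell of most UMIs left out of each library, a check added after the values were seen, Batf3-/- C12 was at 607 CPM (516 to 711) and WT C12 at 157 CPM (143 to 172), a 3.87-fold difference. In Batf3-/- C12, 25 of 31 cells had a UMI of Fabp5 before thinning, with a median of 3 UMIs, against 142 of 394 cells and a median of 0 in WT. Thinned, the shares were 38.7% (21.8 to 57.8) and 10.8%, and among the lymphocytes of C13 they were 2.06% (0.251 to 7.25) in Batf3-/- and 1.71% in WT. Summed without thinning, Fabp5 in these lymphocytes was at 223 CPM in the Batf3-/- library against 24.7 CPM in WT. This sum rests on few cells. Thinned, 2 of 97 Batf3-/- and 3 of 175 WT lymphocytes had a UMI. Over all Batf3-/- cells of C13, 1 cell held 69 of 222 UMIs, and 37.0% were called doublets. The summed cDC2 markers were at 137 CPM in Batf3-/- C12, from 38 UMIs, and at 181 CPM in WT C12. Sirpa was higher in Batf3-/- C12, at 50.6 CPM from 14 UMIs against 41.8 CPM, as was Itgam, at 10.8 CPM from 3 UMIs against 6.74 CPM. The intervals of both log2 ratios cover 0, at -0.64 to 1.08 and -1.71 to 2.44. The others of the list were lower, from at most 11 UMIs each in Batf3-/- C12. Without called doublets, Fabp5 was at 1133 CPM in Batf3-/- and 174 CPM in WT C12. Among markers of other cells, Ms4a1 was 3.85-fold higher in Batf3-/- C12, at place 6 of 2270 genes, and the pDC gene Bst2 1.51-fold higher, while Cd79b was at 3.62 CPM against 6.07 CPM in WT and the 5 monocyte markers summed to 21.7 CPM against 52.6 CPM. The part of these markers, of the called doublets and of the lymphocyte level in the Fabp5 value was not tested.

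The resting cDC1 of C4 show how far 1 cell can carry such a value. Fabp5 was at 21.1 CPM in 2202 WT cells of C4 and at 202 CPM in 31 Batf3-/- cells, but 91 of the 95 UMIs in the latter were in 1 cell. Without that cell, and without the WT cell of most UMIs, the levels were 19.7 and 9.10 CPM, and the direction turned. With called doublets left out of both libraries they were 6.42 and 9.10 CPM, higher in Batf3-/- cells but with an interval there of 2.48 to 23.3 CPM. Of the 6 genes 3 were past 1.5-fold higher in Batf3-/- C4 and none lower, against 17.4% and 12.9% of the genes with a mean of 5 CPM or more, a floor that all 6 passed. In the plasmacytoid DCs of C14, 4 of the 6 genes were past 1.5-fold lower, against 10.4% of genes at the same floor.

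In C8, 5 of the 6 genes were past 1.5-fold higher in Batf3-/- cells, against 1.12% of all genes. Anxa3 was at 90.5 CPM in WT and 204 CPM in Batf3-/- cells, a log2 ratio of 1.18 (1.00 to 1.35), and Fabp5 at 231 and 488 CPM, or 1.08 (0.97 to 1.19). Fscn1 was at 0.90, Il4i1 at 0.70, Cd63 at 0.63 and Spint2 at 0.26 (0.04 to 0.47). Scrublet called 5.27% of WT and 25.2% of Batf3-/- cells of C8 doublets, and without them Anxa3 and Fabp5 were at 1.17 and 1.09 and Cd63 at 0.57, which left 4 genes past 1.5-fold. The 5 monocyte markers summed to 211 CPM in WT C8 and 317 CPM in Batf3-/- C8. Of these only Lyz2, a lysozyme, passed 50 CPM, at a log2 ratio of 0.60 (0.46 to 0.74), and their part was not tested. Clusters with at least 20 UMIs of a gene were compared, less C17 and C18, which held 1 and 2 Batf3-/- cells. Over these clusters Fabp5 was higher in Batf3-/- cells in 18 of 18, with intervals above 0 in 15. Anxa3 was higher in 15 of 17, with intervals above 0 in 12 and below 0 in 1. Spint2 was higher in 10 of 17, with intervals above 0 in 3 and below 0 in 2. Il4i1 was higher in 17 of 18, Fscn1 in 14 of 17 and Cd63 in 12 of 17. All these comparisons come from the same pair of libraries, and no such count was taken over all genes. These counts include C4, where Fabp5, Anxa3, Il4i1 and Fscn1 turned without the cell of most UMIs of each library. They also stand beside a higher level in the lymphocytes of C13, where Anxa3 was at 2.35 CPM in WT and 77.7 CPM in Batf3-/- cells and Il4i1 at 14.1 and 108 CPM, and their part in the differences was not tested. These lymphocyte levels rest on few cells: thinned, 1 of 175 WT and 2 of 97 Batf3-/- lymphocytes had a UMI of Anxa3 and 1 and 4 a UMI of Il4i1, and 15.4% of WT and 37.0% of Batf3-/- cells of C13 were called doublets.

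**Figure D4:**
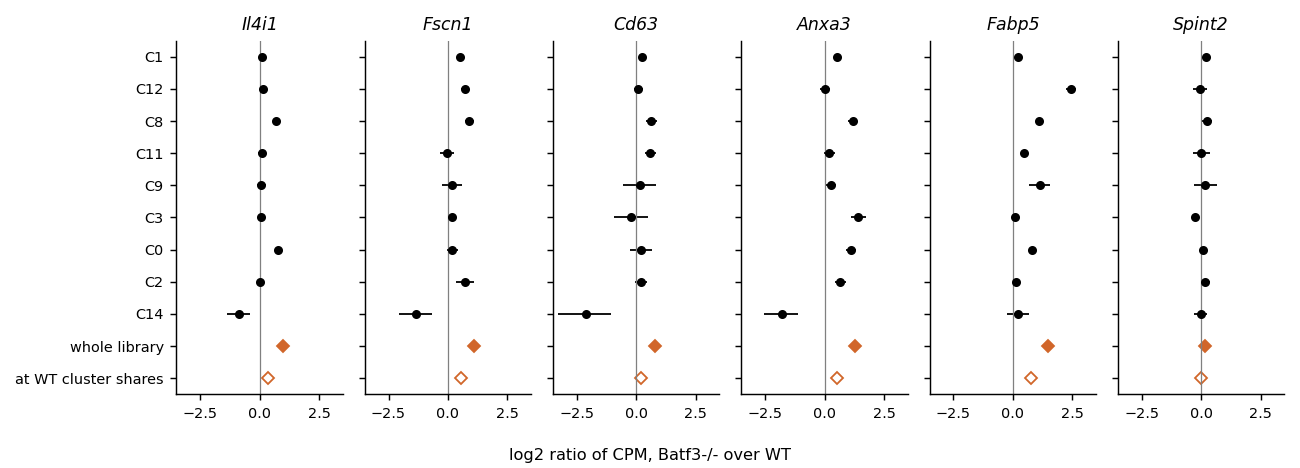
Log2 ratio of CPM, Batf3-/- over WT, in 9 clusters (black points with 95% intervals of counting error), in the whole library (filled diamonds) and with the Batf3-/- level of each cluster weighted by the WT share of UMIs (open diamonds). Points of C8 lie right of 0 in each panel, those of C14 left of 0 for Il4i1, Fscn1, Cd63 and Anxa3, and the open diamond lies nearer to 0 than the filled one in each panel.

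Summed over whole libraries the differences were larger than within C1 for each gene but Spint2. Fabp5 was at 185 CPM in WT and 513 CPM in Batf3-/- cells, 2.77-fold higher and at place 1 of 2667 genes. Anxa3 was at 74.6 and 182 CPM (2.44-fold, place 2), Fscn1 at 72.7 and 156 CPM (2.14-fold), Il4i1 at 151 and 295 CPM (1.96-fold), Cd63 at 54.5 and 94.6 CPM (1.74-fold) and Spint2 at 93.0 and 105 CPM (1.13-fold). In all, 5 of the 6 genes were past 1.5-fold higher, against 2.62% of all genes. C1 took 4.06% of the UMIs in WT and 12.0% in Batf3-/- cells, and C12 took 2.42% and 0.242%. With each cluster of Batf3-/- cells weighted by its share of UMIs in WT, Fabp5 was 1.70-fold, Fscn1 1.46-fold, Anxa3 1.44-fold, Il4i1 1.27-fold and Cd63 1.16-fold higher, and Spint2 was at 0.993 of its WT level. C4 took 27.9% of the UMIs in WT. Of the 95 UMIs behind its Batf3-/- Fabp5 level of 202 CPM, 91 were in 1 cell. The weighted value of Fabp5 was not recomputed with that cell alone left out. Scrublet called it a doublet, the only 1 of the 31 Batf3-/- cells of C4. Without it Fabp5 was at 9.10 CPM there. A library-wide level cannot tell more cells of a cluster from a higher level within it. The levels within clusters are given apart from cluster size. They can still hold free RNA and doublets, whose part was not tested.

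The clusters that supplied these UMIs also differed. In WT, C1 and C12 held 37.5% and 37.2% of the UMIs of Cd63, 36.5% and 31.9% of those of Fscn1, 39.7% and 26.0% of those of Anxa3 and 32.1% and 19.7% of those of Il4i1. In Batf3-/- cells C1 alone held 76.2% of the UMIs of Cd63, 71.3% of Fscn1, 68.8% of Anxa3 and 51.7% of Il4i1, and C12 at most 2.42% for any of them. Fabp5 came mainly from C1 in both, with 52.9% and 65.8%. Spint2 was the exception in WT, with 11.4% of its UMIs in C1 and 22.8% in the resting cDC1 of C4, while in Batf3-/- cells C1 held 34.6% and C4 0.275%.

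**Figure D5:**
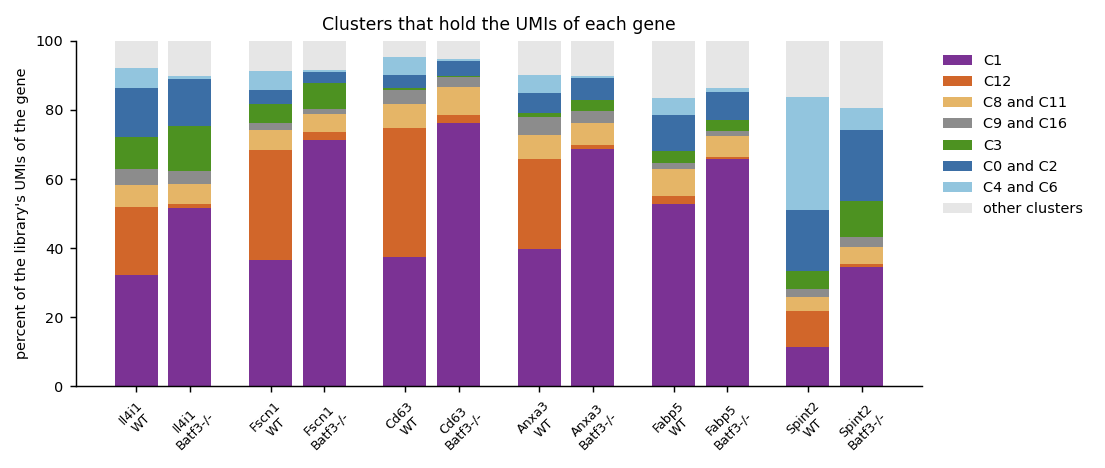
Share of each gene's UMIs in a library that comes from the clusters named in the key, as stacked bars adding to 100%, with WT and Batf3-/- side by side. The part of C12 shrinks from 37.2% to 2.26% for Cd63 and that of C1 grows from 37.5% to 76.2%, whereas for Spint2 the resting clusters hold much of the bar.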

How the data were processed

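Sorted splenic CD11c+ MHCII+ cells of pooled WT and pooled Batf3-/- mice were sequenced as 1 CITE-seq library each. The authors aligned reads to GRCm38 with Cell Ranger, evened the depth of the libraries on aggregation, filtered cells and clustered them in Seurat (3.0.5 per the submitters' processing notes) at resolution 0.5, giving 20 clusters. The raw values are deposited UMI counts, and the authors deposited the mitochondrial and ribosomal shares of each cell as a fraction. Rows of the raw tables carry no names, and the deposited gene list was applied in order; totals and both fractions recomputed this way equalled the deposited values in 24343 of 24343 cells, to rounding. Clusters, cell labels and phases were used as deposited. Normalized tables and antibody counts were not used here.

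CPM, ratios (with exact 95% limits, treating the UMIs of both sides as a binomial draw), Clopper-Pearson shares and thinning were computed in Python 3.11.15 with numpy 2.4.6, scipy 1.17.1 and pandas 2.3.3, and tested on simulated data. Total depth was 122530055 UMIs in WT and 114517073 in Batf3-/- cells. Genes averaging 50 CPM or more over both sides were described by ratios, past 2-fold between clusters or 1.5-fold between genotypes. Scrublet in scanpy 1.11.5 at an expected rate of 0.10 called 497 WT and 1208 Batf3-/- cells doublets, which were kept except where stated. Named genes are the 6 genes, cell type markers, of each list genes among the 3 farthest from 0 each way, and for each of the 6 genes those most alike over the clusters. The result of 1 marker list is not reported here. The genes and lists were chosen with earlier results of these data known. Alternatives were other weights and totals, doublets left out, G1 cells only, the Batf3-/- library, C2 as reference and other depths.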

Additional observations from a re-analysis of the deposited data

Results flagged for a closer look

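Between the genotypes, 4 of the 6 genes went one way in C1 and the other way in C14, the cluster of plasmacytoid DCs, which holds 154 WT and 101 Batf3-/- cells. In C14 the log2 ratio of Batf3-/- over WT was -0.87 (-1.37 to -0.40) for Il4i1, -1.34 (-2.05 to -0.68) for Fscn1, -2.11 (-3.31 to -1.08) for Cd63 and -1.79 (-2.54 to -1.11) for Anxa3, while in C1 each was above 0. The difference between the clusters was not tested, since each genotype is 1 library. Few cells carry these UMIs in C14: the 16 WT cells with the most held 82.9% of Il4i1 and 100% of Cd63, and 38 and 13 WT cells had any. Scrublet called 15.6% of WT and 17.8% Batf3-/- cells of C14 doublets, with a threshold set in each library separately. Without these cells Anxa3 was at 27.0 CPM in WT and 7.92 CPM in Batf3-/- cells, in place of 69.9 and 20.1 CPM, and each of the 4 genes stayed past 1.5-fold lower in Batf3-/- cells, as 10.4% of genes with a mean of 5 CPM or more did in all cells of C14.

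Spint2, at 0.21 in C1, was at -0.26 (-0.40 to -0.11) in the Sox4+ cDCs of C3, with 97.8 CPM in WT and 81.9 CPM in Batf3-/- cells, and at -0.38 (-0.52 to -0.25) in the mitotic cDC1 of C6, with 71.7 and 55.0 CPM. These differences between clusters were not tested either.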

How the results depend on the processing

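No paired analysis was possible because each genotype is 1 library. In each library the 6 genes kept C1 or C12 as their highest cluster under equal weight for each cell, totals less mitochondrial and ribosomal protein genes, doublets left out, G1 cells only and the cell of most UMIs left out (added after seeing the data). Under these Fabp5 alone was past 2-fold between WT C12 and WT C1. This ratio was not taken under them in Batf3-/- cells. In Batf3-/- cells Anxa3 reversed between C12 and C1, to -0.37. Cells of C4 decided many changes: the number of the 6 genes past 1.5-fold higher in Batf3-/- C4, 3 (17.4% of all genes with a mean of 5 CPM or more), was 0 without doublets, in G1 cells and without the cell of most UMIs. The number past 1.5-fold lower there, 0, became 2 with equal weight for each cell and 2 without doublets. It became 5 in G1 cells and 4 without the cell of most UMIs, whose own construction shows the weight of single cells. In all cells of C4, 12.9% of genes with a mean of 5 CPM or more were past 1.5-fold lower. This share was not taken under the alternatives, so nothing is read from these counts. In C4 the log2 ratio reversed for Il4i1 to -0.70 in G1 cells and for Fabp5 to -1.38 in G1 cells and -1.11 without the cell of most UMIs. With smaller counts, Anxa3 there turned from 0.86 to -0.33 without doublets, -0.997 in G1 cells and -1.30 without the cell of most UMIs, Il4i1 to -0.41 without that cell, and Fscn1 from 0.05 to -0.71 with equal weight for each cell and to 0 UMIs in Batf3-/- cells without that cell. In C1, 2 genes in place of 0 were past 1.5-fold higher without doublets, beside 0.762% of all genes with all cells kept. At WT cluster shares, 1 gene, Fabp5, was past 1.5-fold higher, and 0 with equal weight for each cell or in G1 cells. Its weighted value includes C4, where 1 Batf3-/- cell held 91 of 95 UMIs. Shares of all genes without doublets or at WT cluster shares were not taken.

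Shares grow with depth. At 2000 UMIs and unthinned, Il4i1 was found in 81.8% and 95.4% of WT C1 cells and 81.8% and 93.9% of WT C12 cells, and Fabp5 in 75.7% and 88.2% and in 16.5% and 36.0%. At 2000 UMIs at least 4 genes were found in 57.1% of WT C1, 67.6% of Batf3-/- C1, 55.8% of WT C12 and 77.4% of Batf3-/- C12 cells, so that WT C1 and C12 differed less than at 1000 UMIs. At 1000 UMIs without doublets, Batf3-/- C1 was at 44.8%. The share of genes past the fold was 10.9% from C0 to C8 at 200 CPM or more and 3.33% from C2 to C11 at 10 CPM or more. Between genotypes at 10 CPM or more it was 1.31% in C1, 2.09% in C8 and 16.8% in C12, and in C12 5.64% at 200 CPM or more. The cause of these changes was not tested. Batf3-/- values of C4 and C12 rest on 31 cells each.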
